A study of Mus musculus with 40 samples.

Results

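The genes that encode the proteins of the cytosolic ribosome were followed through 40 libraries of mouse melanoma cells. Members were the protein-coding genes whose symbol is Rpl or Rps followed by a number, or Rplp0, Rplp1, Rplp2 or Rpsa, without the Rps6 kinase genes and without pseudogenes. There were 80 such genes among the 51789 of the count table, 49 of the large subunit and 31 of the small subunit. Of these, 79 had at least 1 count somewhere and 77 passed the filter on low counts in each fit. The rule leaves out 8 further ribosomal protein genes with other kinds of symbol (among them Rps3a1, Fau, Rpl36al, Rpl22l1, Rpl7l1, Rps27rt and Rack1), which are given beside the members.

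The libraries were made by QuantSeq 3′ mRNA sequencing, in which each transcript gives one tag near its 3′ end, so that normalised counts (CPM, scaled to library size) can be compared between genes without a correction for length. The 20 groups had 2 libraries each. B16-F10 cells were control (Ctrl) or knocked out for Bmal1, the clock transcription factor that pairs with Clock (Bmal1 KO). YUMM2.1 cells, a line from Braf-mutant tumours with stabilised beta-catenin, kept their own Bmal1 and carried an empty vector (EV), wild-type Bmal1 (WT-Bmal1) or Bmal1 without its DNA-binding basic helix-loop-helix domain (dHLH-Bmal1), each expressed constitutively. The same 3 vectors were put into aC3, a single Bmal1-null clone of YUMM2.1, and into YUMM1.7, a Braf-mutant line without Cdkn2a. YUMM2.1 cells with each vector also received a control hairpin (shNC) or 1 of 2 hairpins against Myh9 (shMyh9#2 and shMyh9#4), the heavy chain of non-muscle myosin. The study calls such pairs biological replicates, but the labels do not say whether the 2 libraries of a group came from separate cultures, so p-values measure the spread between those libraries, which may be technical.

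As background, each ribosome holds one copy of nearly every one of these proteins, and the cell makes them in matched amounts. Their transcripts are among the most abundant in growing cells. Most begin with a 5′ terminal oligopyrimidine (TOP) tract, a cytosine followed by a run of pyrimidines, through which mTORC1 and Larp1 control translation. Free copies of some members, of which Rpl5 and Rpl11 are the best known, bind Mdm2 and stabilise p53. The mouse genome holds many retrotransposed copies of these genes, some with the same sequence over the whole transcript.

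The start sites are shown because the TOP tract is described for most of these transcripts and the membership rule did not use it. RefSeq (GRCm38.p6) gave a promoter window for 60 of the 80 members, running from 250 bases before to 50 bases after an annotated start, and a gene was counted where any of its windows held the letters. A cytosine with at least 4 further pyrimidines stood exactly at an annotated start in 13 of the 60 (21.7%), against 2.67% of 17492 protein-coding genes and 0 of 69 mitochondrial ribosomal protein genes. Within 5 bases of the start the shares were 46.7% of members, 24.6% of mitochondrial ribosomal protein genes and 21.5% of all genes. The windows of 6 members with such a tract that are named in the comparisons are printed 5′ to 3′ from 15 bases before the start to 15 bases from it onward, with the pyrimidine run in capitals. The capitals begin at a cytosine within 5 bases of the start, so in Rpl35 the run reaches further upstream than marked.
Rpl15, chr14:18270972-18271001, minus strand: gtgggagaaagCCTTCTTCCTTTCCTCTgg
Rpl35, chr2:39005117-39005146, minus strand: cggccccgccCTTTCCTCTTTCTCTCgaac
Rplp2, chr7:141447636-141447665, plus strand: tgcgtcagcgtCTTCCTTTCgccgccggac
Rps6, chr4:86857353-86857382, minus strand: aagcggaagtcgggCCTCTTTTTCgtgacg
Rps21, chr2:180257364-180257393, plus strand: taccgaggacccgCCCTCCTgcccaatagt
Rps27, chr3:90213634-90213663, minus strand: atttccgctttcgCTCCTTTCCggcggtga

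Bmal1 and Clock bind the E-box CACGTG, which reads the same on both strands. It was found in the windows of 6 members (10%) and of 8.91% of all genes. The ETS core CGGAAG, searched on both strands, was found in 68.3% of members, 56.5% of mitochondrial ribosomal protein genes and 23.5% of all genes. The TATA box TATAAA was found in 10% of members and 14.8% of all genes. Of the 6 members with the E-box, 3 are shown with its letters in capitals, as examples that lie near the start and far from it. The E-box of Rpl23 began 3 bases before the start, that of Rpl19 19 bases before it and that of Rpl13a 200 bases before it. The other members with one were Rpl14, Rpl34 and Rps19, the last at an alternative start.
Rpl13a, chr7:45128928-45128957, minus strand: cgctccgaaaccCACGTGacatcccgcccc
Rpl19, chr11:98026679-98026708, plus strand: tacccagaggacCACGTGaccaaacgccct
Rpl23, chr11:97782425-97782454, minus strand: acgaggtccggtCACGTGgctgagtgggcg

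Library totals ranged from 3643332 to 22970049 counts, with the 4 B16-F10 libraries highest. In the knockdown groups Myh9 stood at 24.6% to 35.8% of shNC with shMyh9#2 and at 54.1% to 73.0% with shMyh9#4. The 3′ tags of Arntl, the gene of Bmal1, did not separate B16-F10 Ctrl (16.5 and 11.4 CPM) from Bmal1 KO (14.2 and 11.3 CPM), and tags outside the edited part do not check the knockout. Dbp, a target of Bmal1, stood at 7.45 and 8.01 CPM in aC3 EV and at 47.4 and 45.4 CPM in aC3 WT-Bmal1. The pigment gene Pmel was at 2998 to 4569 CPM in B16-F10 and under 1 CPM in every YUMM library, and Sox10 was at 0.0921 to 1.54 CPM in YUMM1.7. Markers of other cell types (Ptprc, Cd3e, Cd68, Pecam1, Cdh5, Krt5, Krt14 and Epcam) summed to 5.09 to 25.9 CPM, with Cd3e and Epcam at 0 in every library. A supplementary table of the study carries the values of YUMM2.1 EV replicate 2 and YUMM2.1 WT-Bmal1 replicate 1 under each other's names, so counts of members that rest on these 2 libraries are given as labelled, with the labels exchanged and with both left out. Single genes and other lists are given as labelled, and for YUMM2.1 dHLH-Bmal1 against EV also with the calls that changed under these alternatives. The share of all genes called is given for the fits as labelled and for few of the alternatives. Counts from the other alternatives, or with libraries left out, do not set the members apart from all genes. The library of dHLH-Bmal1 shMyh9#4 replicate 2 stood apart in how its reads were split between members and their copies, as described below.

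The 80 members together took 5.63% to 12.36% of the counts of a library, with a median of 10.3%. The lowest shares were those of B16-F10, at 5.63% and 6.41% in Ctrl and 5.99% and 6.81% in Bmal1 KO, and no library of another line came below 8.70%. The YUMM2.1 libraries stood at 8.70% and 9.63% for EV, 9.13% and 9.82% for WT-Bmal1, and 11.31% and 12.20% for dHLH-Bmal1. The aC3 shares were 9.41% and 9.80% for EV, 9.71% and 10.28% for WT-Bmal1, and 8.83% and 10.63% for dHLH-Bmal1, whose replicates bracketed the other aC3 libraries. YUMM1.7 stood at 11.29% and 11.10% for EV, 11.35% and 11.10% for WT-Bmal1, and 10.58% and 10.91% for dHLH-Bmal1. With the control hairpin, YUMM2.1 EV was at 9.68% and 10.38%, WT-Bmal1 at 11.66% and 12.36%, and dHLH-Bmal1 at 11.97% and 12.19%, the EV libraries lying below the other 4. The pooled standard deviation between replicates was 0.495 percentage points, and a permutation test of 2 against 2 libraries cannot reach a low p-value, so these shares are a description. The 78 mitochondrial ribosomal protein genes took 0.364% to 0.458%. In bulk RNA a lower share of one set of transcripts cannot be told apart from more RNA of other genes per cell.

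**Figure D1:**
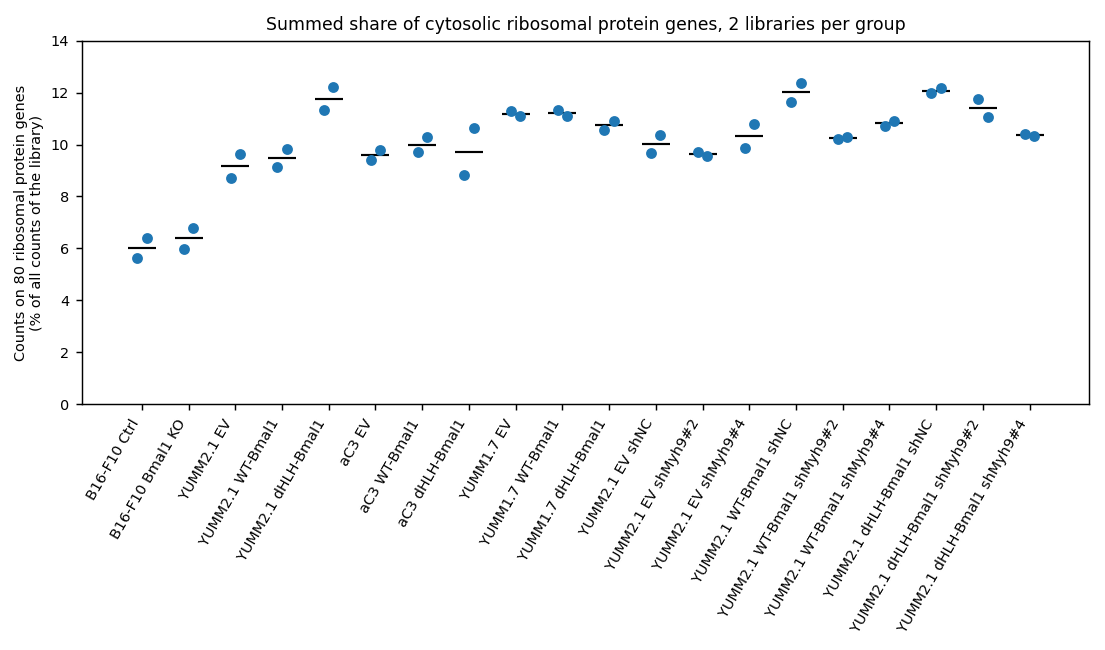
Counts on the 80 members as a percentage of all counts of each library, with the 2 libraries of a group as points and their mean as a line. B16-F10 libraries lie between 5.63% and 6.81%, and YUMM2.1 with dHLH-Bmal1 or with the control hairpin and either Bmal1 construct lies highest, up to 12.36%.

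The members differed widely in level. The 8 highest by mean CPM over the 20 groups were Rplp1 (4169), Rpl41 (3515), Rpl27a (3277), Rpl23 (2636), Rpl37 (2622), Rplp2 (2598), Rpl23a (2476) and Rps12 (2367), and together they held 23.3% of the summed level. Rplp1 and Rplp2 are the acidic stalk proteins, which are present in more than one copy per ribosome, and Rpl41 encodes a very short peptide of the large subunit. The median member stood at 1155 CPM, 70 members were above 500 CPM and 50 above 1000 CPM. At the low end were Rpl12 (49.7 CPM), Rpl10 (27.0 CPM), Rpl39l (0.0878 CPM) and Rpl3l (0.00536 CPM), while Rpl10l had no count in any library. Rpl39l, Rpl3l and Rpl10l are paralogs used in testis or muscle, while the common forms Rpl3 and Rpl39 averaged 1650 and 539 CPM. Rpl3l had 3 counts and Rpl39l 27 counts over all libraries, so neither could be compared between groups. Rps27l, a p53-inducible paralog of Rps27, stood at 196 CPM against 380 CPM for Rps27.

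The order of the members was much the same in the 4 parental backgrounds. Spearman's rho of member levels with those of YUMM2.1 EV was 0.98 in aC3 EV, 0.94 in YUMM1.7 EV and 0.86 in B16-F10 Ctrl. It was taken across the 77 members with a mean of at least 10 CPM, which are not independent replicates. Of the 77 members at 10 CPM or more, 68 had their lowest group mean in B16-F10, 53 in Ctrl and 15 in Bmal1 KO. The median correlation between pairs of members over the 20 group means was 0.70, with quartiles of 0.48 and 0.84 over 2926 pairs that share libraries and depth. The low B16-F10 groups are among these 20. Neither this correlation nor the count of lowest group means was taken over other genes, so neither sets the members apart. The range of a member's group means on the log2 scale had a median of 1.31. It was narrowest for Rpl8 (0.65) and widest for Rpl10 (3.19), Rps12 (2.71), Rpl36a (2.40), Rps20 (2.27), Rpl10a (2.19) and Rpl5 (2.18). Rps12 averaged 548 CPM in B16-F10 Ctrl and 3593 CPM in YUMM2.1 WT-Bmal1 shNC, and Rpl36a averaged 217 CPM in B16-F10 Ctrl and 1148 CPM in YUMM2.1 dHLH-Bmal1. The wide range of Rpl10 ran from 9.04 CPM in aC3 WT-Bmal1 to 82.5 CPM in YUMM2.1 WT-Bmal1 shMyh9#4, where its libraries held 120 and 44.8 CPM. Only Rpl10 and Rpl8 passed the test in none of the 19 comparisons.

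**Figure D2:**
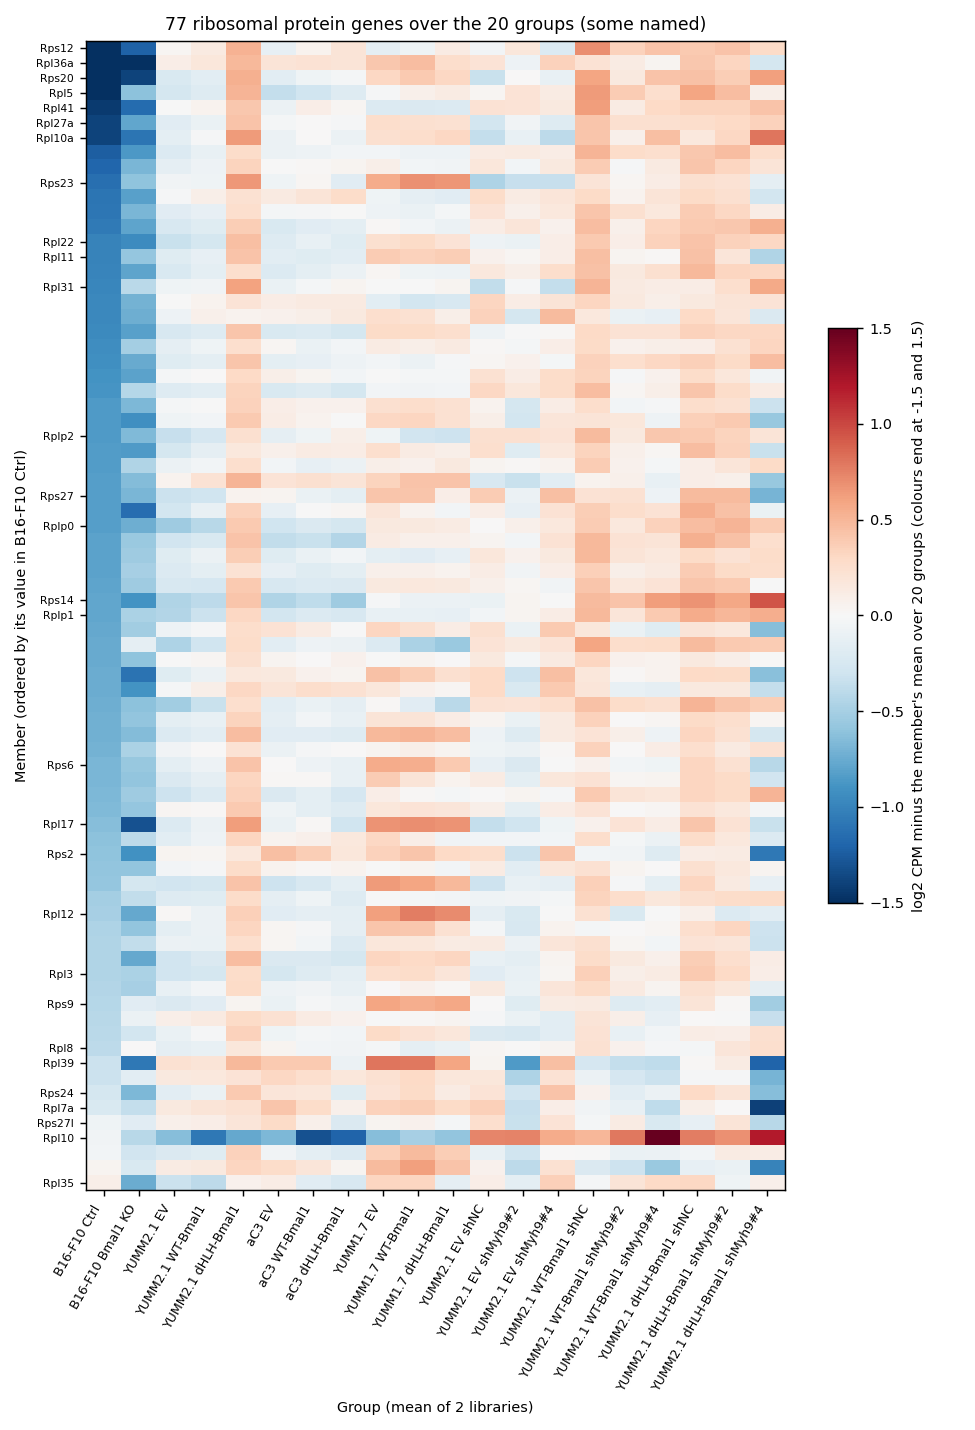
Level of 77 members in the 20 groups, as log2 CPM of the group mean minus the member's mean over groups, one row per member with names for some, with blue lower and red higher and colours ending at 1.5 on either side. The B16-F10 columns are blue for most members, and the dHLH-Bmal1 shMyh9#4 column holds both the highest group mean of Rps14, Rps20 and Rpl10a and the lowest of Rpl39.

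The low level of Rpl10 and Rpl12 came with high counts on copies of the same sequence. A comparison of annotated transcripts found 569 genes that matched a member at 95% identity or more over at least 80% of the shorter transcript, 473 of them with counts. They took 11.7% of the counts on members and copies together. The copy Rpl10-ps3, annotated as protein-coding, matched Rpl10 at 100% over 740 bases and held a median of 98.6% of their shared counts, so that Rpl10 and this copy together averaged 1494 CPM. In the same way Rpl12 with Gm10275 averaged 1081 CPM, Rpl35 with Gm2000 1314 CPM and Rps23 with Rps23-ps1 2240 CPM. In GRCm38 Rpl10 lies at chrX:74270812-74273135 on the plus strand, Rpl35 at chr2:39001580-39005624 and Rps27 at chr3:90212522-90213651, both on the minus strand. In all, 18 members had over 10% of their counts on copies. For these 18, among them Rpl5, Rpl11, Rpl17, Rpl31, Rpl39, Rpl41, Rps12 and Rps27, the value of the member alone is uncertain, since reads that fit both places have to be divided between them.

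The division moved between libraries. The share of member and copy counts on copies ran from 7.69% to 16.6% of a library, at 14.5%, 15.4%, 14.9% and 10.4% in the B16-F10 libraries and 14.7% and 14.4% in YUMM2.1 EV shNC, against 9.30% and 7.69% in dHLH-Bmal1 shMyh9#4. In replicate 2 of that last group Rps27rt held 82.5% of the counts it shares with Rps27, against 46.0% in replicate 1 and 27.9% and 34.6% in dHLH-Bmal1 shNC. In the same library Rpl10a-ps1 held 0% of the counts it shares with Rpl10a, against 27.5% in replicate 1 and 48.2% and 40.1% in dHLH-Bmal1 shNC. Where a named change of one of these 18 lost its call or moved by over 1.5 times with the counts of its copies added, an alternative chosen after the data were seen, that value is given. Apart from copies, 29 members host or overlap a small nucleolar RNA gene, whose reads a count of the gene could include.

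**Figure D3:**
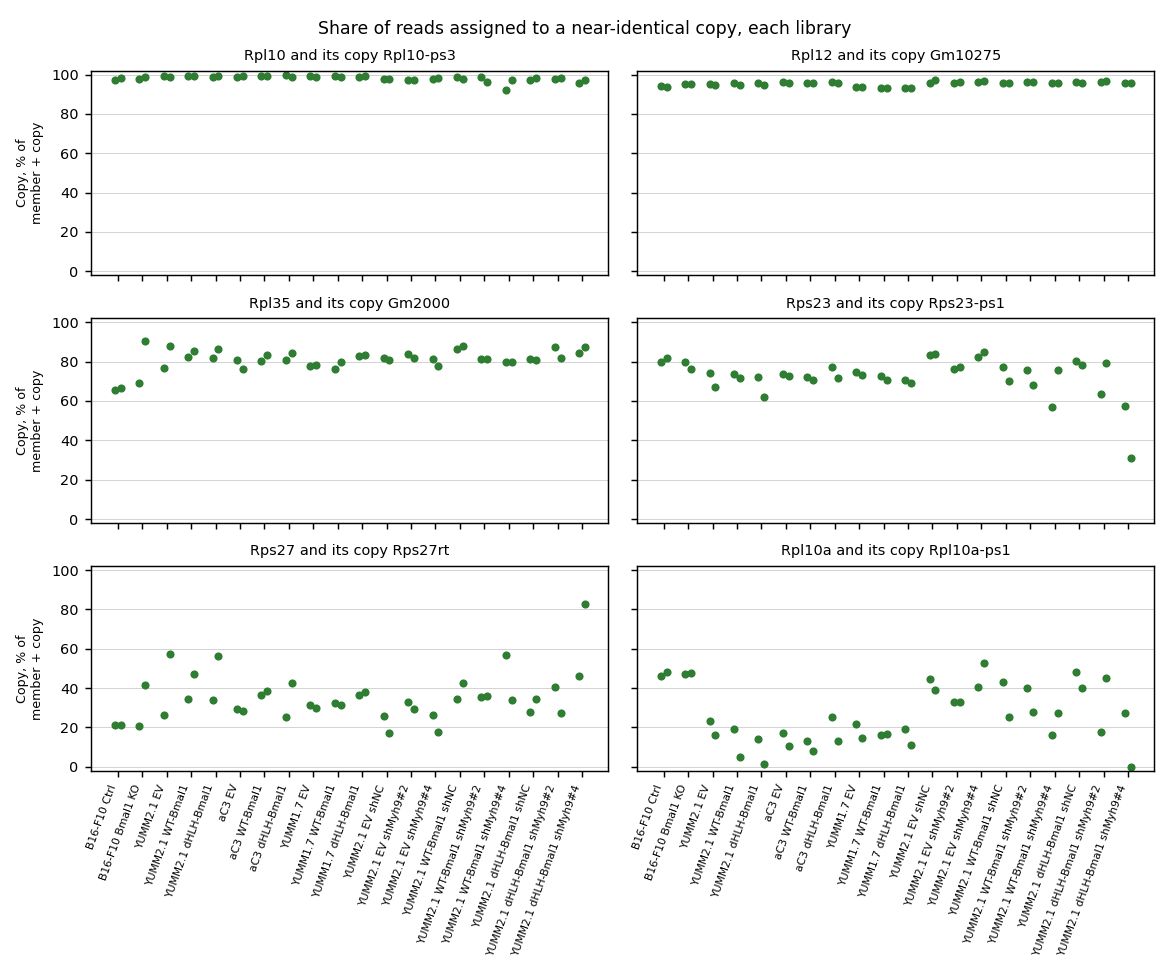
Share of reads assigned to the largest near-identical copy, as a percentage of the member's and the copy's counts, for 6 members in each of the 40 libraries (2 points per group). Rpl10 and Rpl12 stay at 92.4% or more on the copy in every library, while Rps27 and Rpl10a differ between libraries, from 17.1% to 82.5% and from 0% to 52.9%.

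The comparisons asked whether the set followed Bmal1, the DNA-binding mutant, Myh9 or the line. Log2 fold changes and their standard errors (SE) come from the quasi-likelihood test of edgeR, with p-values adjusted by Benjamini-Hochberg over all genes tested, and a member was called at an adjusted p under 0.05. The plot of changes shows all 77 members in each comparison.

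**Figure D4:**
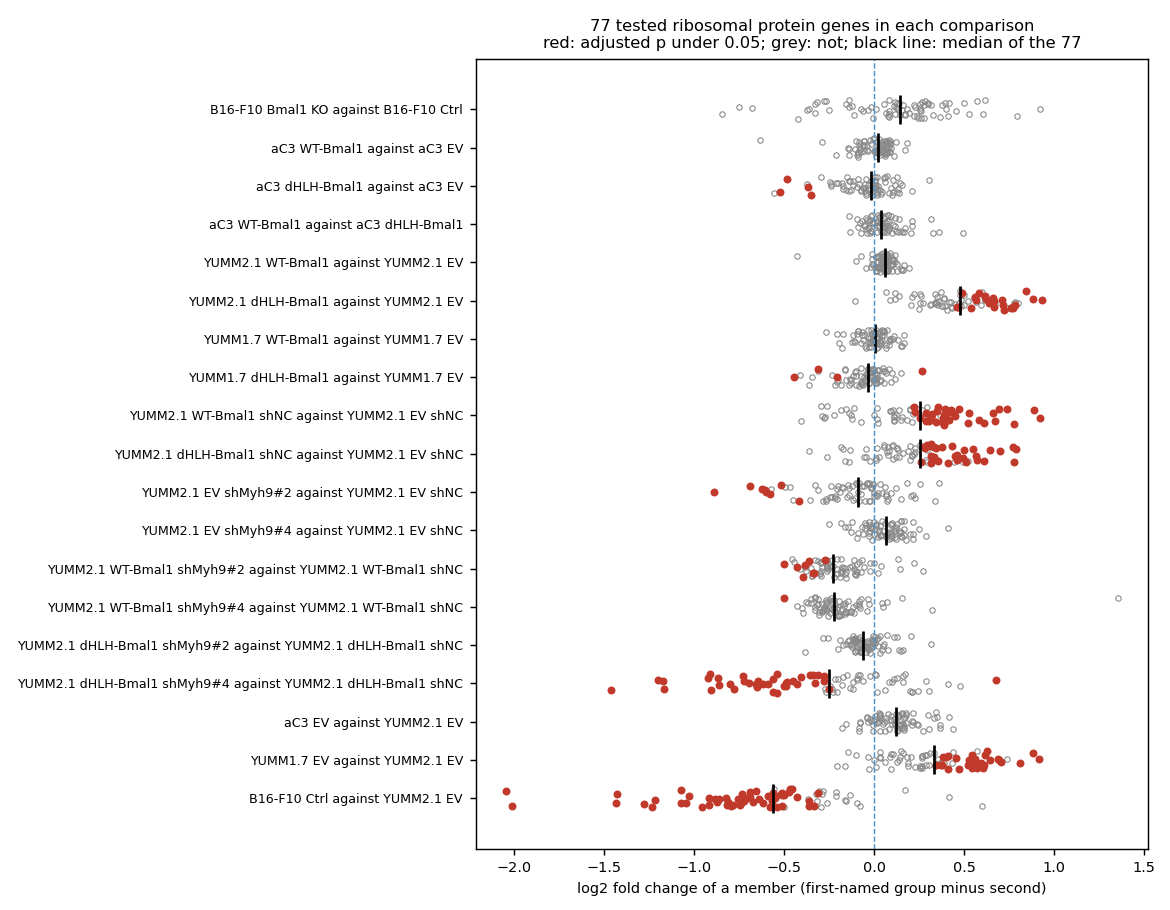
Log2 fold change of the 77 tested members in each of 19 comparisons, first-named group minus second, with called members in red, others in grey and the median as a black line. The members lie mostly to the right in YUMM2.1 dHLH-Bmal1 against EV (median 0.47) and mostly to the left in B16-F10 Ctrl against YUMM2.1 EV (median -0.56), and they spread widely in dHLH-Bmal1 shMyh9#4 against shNC.

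Loss of Bmal1 in B16-F10 moved no member past the test. The count of members called was 0 of 77, where 0.44% of all genes were called, with 2 members at an unadjusted p under 0.05 and 0 called by DESeq2. The median log2 fold change was 0.14 and single members ran from -0.85 to 0.92. Rpl5 had the highest value, with 412 and 580 CPM in Ctrl and 561 and 1316 CPM in Bmal1 KO, which is 0.92 ± 0.422 on the log2 scale (SE, edgeR adjusted p = 0.463). Rps12, a small-subunit protein, had 514 and 639 CPM in Ctrl and 569 and 1429 CPM in Bmal1 KO, a log2 fold change of 0.79 that was not called (edgeR adjusted p = 0.511). For these 2 genes Bmal1 KO replicate 2 was thus high and replicate 1 lay near the controls. Over the 77 members, replicate 1 of Bmal1 KO was the higher one for 25. Both genes have copies, and copies took 10.4% of member and copy counts in Bmal1 KO replicate 2, against 14.9% in replicate 1. Members and copies together took 7.03% and 7.59% of all counts in Bmal1 KO and 6.58% and 7.57% in Ctrl. Leaving out single libraries gave medians over members of 0.017 to 0.25, so the result rests on which library stands for a group.

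Expressing WT-Bmal1 in the null clone aC3 moved no member past the test. In aC3 WT-Bmal1 against aC3 EV, 0 of 77 members were called although 11.2% of all genes were, and the median log2 fold change was 0.023, with 1 member at an unadjusted p under 0.05 and 0 called by DESeq2. Rplp0, the scaffold of the ribosomal stalk, had 1233 and 1429 CPM with EV and 1229 and 1570 CPM with WT-Bmal1. The 6 members with an E-box had log2 fold changes of -0.063 to 0.065 here, and none was called: Rpl23 had 0.057 ± 0.102 (SE, edgeR adjusted p = 0.786) and Rpl13a 0.036 ± 0.142 (SE, edgeR adjusted p = 0.909). In aC3 WT-Bmal1 against aC3 dHLH-Bmal1, 0 members were called at a background of 0.877%, with 4 at an unadjusted p under 0.05 and 0 by DESeq2, and the median was 0.038.

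In aC3 dHLH-Bmal1 against aC3 EV, 4 of 77 members were lower, a share near the 6.09% of all genes, and the median over members was -0.021. Rps27l had 229 and 259 CPM with EV and 145 and 195 CPM with dHLH-Bmal1, which is -0.52 ± 0.12 on the log2 scale (SE, edgeR adjusted p = 0.0131). Rpl39, which lines the exit tunnel, fell from 622 and 732 CPM to 382 and 586 CPM. Rpl35 had 229 and 295 CPM against 200 and 207 CPM, and Rpl7a 1338 and 1434 CPM against 981 and 1193 CPM. With copies added Rpl39 and Rpl35 had log2 fold changes of -0.26 and -0.038 and neither was called. The 2 dHLH-Bmal1 libraries differed by a median of 0.37 on the log2 scale, replicate 1 being lower for all 77 members. Leaving out single aC3 libraries gave medians over members of -0.25 to 0.14, so the direction of the set rests on the libraries used.

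The dHLH-Bmal1 construct in YUMM2.1, which has its own Bmal1, went with higher levels of the set. In dHLH-Bmal1 against EV 22 of 77 members were higher and 0 lower, where 6.51% of all genes were higher. The fold change was positive for 76 members, and the median was 0.47 against -0.011 over all genes tested. Both dHLH-Bmal1 libraries lay above both EV libraries for 64 members, and for 27.6% of all genes. Rplp0 had 930 and 1260 CPM with EV and 1836 and 2348 CPM with dHLH-Bmal1, which is 0.93 ± 0.216 on the log2 scale (SE, edgeR adjusted p = 0.0339). Rps14, a protein of the small-subunit platform, had 1348 and 1729 CPM against 2488 and 3170 CPM. Rpl17, at the exit tunnel, had 330 and 325 CPM against 623 and 551 CPM. Both were higher in every dHLH-Bmal1 library than in every EV library, and with copies added Rpl17 had a log2 fold change of 0.65 that was not called. Rpl22 had 0.78 ± 0.127 on the log2 scale (SE, edgeR adjusted p = 0.0114) and Rps20 of 0.77 ± 0.141 (SE, edgeR adjusted p = 0.0159).

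Of the 3 stalk genes and the 2 genes of the 5S particle, 1 each passed the test in this comparison. Rplp1 had 2401 and 3548 CPM with EV and 4113 and 5975 CPM with dHLH-Bmal1, and its value of 0.76 was not called (edgeR adjusted p = 0.0966), and Rplp2 had 0.59 (edgeR adjusted p = 0.152). Rpl11 had 655 and 792 CPM against 1029 and 1195 CPM and was called, while its partner Rpl5 had a log2 fold change of 0.78 that was not called (edgeR adjusted p = 0.058). Rps27l and Rpl39 had the small values of 0.11 and 0.25, and neither was called. With the labels of the 2 doubted libraries exchanged all 5 stalk and 5S genes were called, at 1.10 for Rplp0, 0.95 for Rplp1, 0.81 for Rplp2, 0.93 for Rpl5 and 0.69 for Rpl11, and the replicate block also called all 5. With both libraries left out Rplp0 (1.16), Rplp1 (1.06) and Rpl5 (1.10) were called, and Rplp2 (0.85) and Rpl11 (0.75) were not.

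The count of calls in this comparison depended on the libraries. Same-numbered YUMM2.1 libraries deviated together, which the main fit did not take into account. A fit with the replicate number as a block called 65 members higher in place of 22, where 14.1% of all genes were higher in that fit. With the labels of the 2 doubted libraries exchanged, 59 members were higher, with a median of 0.52. In that fit 28.7% of all genes were called in either direction, and the share called higher is not given. With both libraries left out, which leaves EV with 1 library, the median was 0.53. Rps14 (1.06) kept its call there, while Rpl17 (0.82), Rpl22 (0.86) and Rps20 (0.89) lost theirs. Without EV replicate 1 a single member was called. Scaling by library totals gave 14 higher members and a median of 0.33, where the median of all genes was -0.15. Sox10, the lineage factor of melanocytes, stood at 532 and 493 CPM of total counts with EV and at 63.9 and 67.3 CPM with dHLH-Bmal1, and its part in these values was not tested.

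WT-Bmal1 in the same cells gave no call, for members or for any other gene tested, so the members are not set apart. Arntl stood at 16.9 and 14.2 CPM of total counts with EV and at 14.4 and 18.6 CPM with WT-Bmal1. Whether these tags count the construct is not known. Sox10 stood at 532 and 493 CPM with EV and at 558 and 440 CPM with WT-Bmal1. Under the control hairpin, described below, 37 of 77 members were higher with the same construct. In YUMM2.1 WT-Bmal1 against EV, 0 of 77 members were called at a background of 0%, with 0 at an unadjusted p under 0.05 and 0 by DESeq2, and the median log2 fold change was 0.057. With the labels exchanged the count was 0 and the median 0.14, and with both doubted libraries left out 0 and 0.18.

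YUMM1.7 gave few calls. For WT-Bmal1 against EV 0 members were called at a background of 0.138%, with 14 at an unadjusted p under 0.05 and 2 called by DESeq2, and the median log2 fold change was 0.0055. For dHLH-Bmal1 against EV 1 member was higher (0.21% of all genes) and 3 were lower (0.42%), with a median of -0.038. Rps12 had 2109 and 2018 CPM with EV and 2476 and 2482 CPM with dHLH-Bmal1, which is 0.26 ± 0.0397 on the log2 scale (SE, edgeR adjusted p = 0.00315). Rpl35 fell from 310 and 289 CPM to 220 and 220 CPM, Rps27 from 506 and 492 CPM to 407 and 397 CPM, and Rpl39 from 873 and 921 CPM to 783 and 768 CPM. These 4 members are all among the 18 with copies. With copies added none of the 77 was called, the value of Rps12 turned to -0.041, and those of Rpl35, Rps27 and Rpl39 were -0.074, -0.17 and -0.13.

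The effects of dHLH-Bmal1 in YUMM2.1 and in the other cells were compared in one fit, in tests added after the data were seen. The effect in YUMM2.1 minus that in aC3 was called above 0 for 21 members and called below 0 for 0, where 5% of all genes were called above, with a median of 0.48. Rpl17 had a difference of 1.04 ± 0.226 (SE) and Rps14 of 0.95 ± 0.274 (SE), both called by edgeR. The effect in YUMM2.1 minus that in YUMM1.7 was called above 0 for 27 members and called below 0 for 0, at a background of 5.38%, with a median of 0.55, and Rpsa, the laminin-receptor protein of the small subunit, had the largest difference at 1.19 ± 0.265 (SE). With the 2 labels exchanged these counts were 37 and 38.

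The control-hairpin cells hold the same contrast of constructs in other libraries. In dHLH-Bmal1 shNC against EV shNC 30 members were higher and 0 lower, where 13.9% of all genes were higher, and the median log2 fold change was 0.25. Rps14 had 1781 and 2015 CPM with EV and 3045 and 3517 CPM with dHLH-Bmal1, which is 0.79 ± 0.143 on the log2 scale (SE, edgeR adjusted p = 0.000475). Rpl17 rose from 269 and 300 CPM to 510 and 465 CPM, and Rps20 from 1550 and 1830 CPM to 2774 and 3000 CPM. Rps23, which sits in the decoding centre, rose from 378 and 411 CPM to 629 and 653 CPM, but its log2 fold change of 0.70 became 0.36 with copies added and was then not called. Of the 22 members called higher without hairpins, 19 were also among these 30, which is 86.4% of the one list and 63.3% of the other. The same overlap was not counted over all genes, so it does not set the members apart. The hairpins were put into the cells that already carried the vectors, so the construct was not introduced anew. The shared members included Rplp0, Rpl3, Rpl11, Rpl22, Rps6 and Rps25.

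In WT-Bmal1 shNC against EV shNC 37 members were higher and 0 lower, where 11.7% of all genes were higher, with a median of 0.25. These libraries share their EV controls with the previous comparison. Rps20 had 1550 and 1830 CPM with EV and 3018 and 3388 CPM with WT-Bmal1, which is 0.92 ± 0.128 on the log2 scale (SE, edgeR adjusted p = 4.72e-05). Rpl31 rose from 601 and 673 CPM to 1010 and 1346 CPM, a log2 fold change of 0.89 that became 0.28 with copies added, Rpl10a from 688 and 819 CPM to 1091 and 1490 CPM, and Rpl27a from 2330 and 2741 CPM to 3806 and 4395 CPM. Rps12 rose from 1898 and 2287 CPM to 3206 and 3775 CPM, yet its value of 0.74 became 0.16 with copies added and was then not called. With copies added 30 members were called and the median was 0.20. Of the E-box members, Rpl19 (0.40), Rpl14 (0.39) and Rpl23 (0.29) were called, and Rpl13a (0.16), Rpl34 (0.11) and Rps19 (0.21) were not. That share is near the 37 of 77 over all members. Among them Rpl14 alone was also called higher in both comparisons of dHLH-Bmal1, which lacks the DNA-binding domain, with EV in YUMM2.1. The part of the E-box was not tested.

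Under the control hairpin 2 of the 3 stalk genes and both 5S genes were higher with either construct. Rplp1 had 3749 and 3860 CPM in EV, 4784 and 6166 CPM in WT-Bmal1 and 5556 and 6031 CPM in dHLH-Bmal1 cells. Rplp0 had log2 fold changes of 0.38 and 0.46, Rpl5 of 0.61 and 0.57, and Rpl11 of 0.38 and 0.37, all called. Rplp2 had 0.24 and 0.16 and was called in neither. Leaving out single libraries gave 10 to 30 called members with WT-Bmal1, the lowest without EV shNC replicate 1, and 13 to 26 with dHLH-Bmal1. Sox10 was at 326 and 323 CPM of total counts in EV shNC, 95.7 and 94.5 CPM in WT-Bmal1 shNC and 22.2 and 25.4 CPM in dHLH-Bmal1 shNC. Markers of other cell types summed to 13.8 and 8.99 CPM of total counts in EV shNC, 22.4 and 20.6 CPM in WT-Bmal1 shNC and 15.6 and 17.5 CPM in dHLH-Bmal1 shNC, and 1 of the 3 tested was called higher with either construct. Cdh5, a marker of endothelial cells, was at 3.53 and 2.06 CPM in EV shNC, 12.5 and 11.1 CPM in WT-Bmal1 shNC and 7.88 and 7.72 CPM in dHLH-Bmal1 shNC, while Cd3e and Epcam were at 0. The part of Sox10 and of these markers was not tested.

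The Myh9 hairpins were read within each construct. With EV, shMyh9#2 lowered 8 members and raised 0, where 2.46% of all genes were lower, and the median log2 fold change was -0.090. Rpl39 had 475 and 532 CPM with shNC and 234 and 309 CPM with shMyh9#2, and Rpl7a 1279 and 1229 CPM against 711 and 843 CPM. With copies added Rpl39 had a log2 fold change of -0.79 and was not called. Rpl32 had -0.63 ± 0.123 on the log2 scale (SE, edgeR adjusted p = 0.00439), Rpl37a of -0.61 and Rps21 of -0.60. Rps27l also fell, from 223 and 224 CPM to 138 and 161 CPM. Without shNC replicate 2 or shMyh9#2 replicate 1 no member was called, and without either of the other libraries 3 were. The markers of other cell types summed to 19.9 and 18.6 CPM of total counts with shMyh9#2, against 13.8 and 8.99 CPM with shNC, and their part was not tested. The weaker hairpin shMyh9#4 gave 0 calls at a background of 1.71%, with 3 at an unadjusted p under 0.05 and 0 by DESeq2, and a median of 0.062.

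With WT-Bmal1, shMyh9#2 lowered 8 members and raised 0, where 2.41% of all genes were lower, with a median of -0.23. Rpl41 had 4569 and 5487 CPM with shNC and 3333 and 3757 CPM with the hairpin, which is -0.50 ± 0.118 on the log2 scale (SE, edgeR adjusted p = 0.0188). Rpl13a had 2564 and 2476 CPM against 1870 and 1869 CPM, and Rps19, the gene most often mutated in Diamond-Blackfan anaemia, 1318 and 1466 CPM against 1070 and 1041 CPM. Rpl15 fell by 0.37 on the log2 scale. Without shNC replicate 1 there were 3 calls, and without any one of the other 3 libraries there were 0. With shMyh9#4 the median was likewise -0.22, and 1 member was lower and 0 were higher, where 0.148% of all genes were lower, and that call was lost without any one of the 4 libraries. The difference between the hairpin's effects with EV and with WT-Bmal1 was not tested.

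With dHLH-Bmal1, shMyh9#2 gave 0 calls at a background of 0.559%, with 2 at an unadjusted p under 0.05 and 0 by DESeq2, and a median of -0.065. With shMyh9#4, the hairpin with less effect on Myh9, 37 members were lower and 1 was higher, where 8.86% of all genes were lower and 6.28% higher, and the median was -0.25. The shMyh9#4 libraries held 3643332 counts, the lowest total of the series, and 6001340, against 14718654 and 6347481 in shNC. They had 16258 and 16625 genes detected, against 18608 and 17218 in shNC. The part of depth was not tested. Rpl7a had 1087 and 1003 CPM with shNC and 445 and 315 CPM with shMyh9#4, which is -1.46 ± 0.2 on the log2 scale (SE, edgeR adjusted p = 0.000541). Rps2 fell from 1613 and 1469 CPM to 772 and 600 CPM, Rps24 from 798 and 755 CPM to 449 and 369 CPM, and Rpl39 from 528 and 463 CPM to 236 and 197 CPM, a fall that was larger with copies added (-1.96). Rps27 had 526 and 468 CPM with shNC and 356 and 89.4 CPM with the hairpin, and its value of -1.17 became -0.30 with copies added and was then not called. Rpl10a was the member that rose, from 1005 and 1158 CPM to 1452 and 2002 CPM, and with copies added its log2 fold change was 0.050 and not called.

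The structure groups gave these counts in the same comparison, where 37 of 77 members and 8.86% of all genes were lower. Whether a group differed from the other members was not tested. The lists of the small-subunit head and platform and of the exit tunnel rim are not given. Of the 6 tested members of the entry and decoding side of the small subunit 5 fell, with a median of -0.58. Both 5S genes fell, Rpl11 from 1042 and 1124 CPM to 686 and 499 CPM and Rpl5 by 0.49 on the log2 scale. Of the 19 genes linked to Diamond-Blackfan anaemia 13 fell, with a median of -0.36. None of the 3 stalk genes was called. Rplp1 had 5556 and 6031 CPM with shNC and 5397 and 6217 CPM with shMyh9#4, a log2 fold change of 0.0034. Leaving out shMyh9#4 replicate 2, the library with the unusual split of copies, gave 0 higher and 8 lower members, whereas adding copies gave 0 higher and 39 lower.

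The 2 hairpins were also compared with each other. In tests added after the data were seen, dHLH-Bmal1 shMyh9#4 against shMyh9#2 gave 30 lower members and 0 higher, where 9.89% of all genes were lower, and 6 lower members without shMyh9#4 replicate 2. The effect of shMyh9#4 in dHLH-Bmal1 cells minus that in EV cells was called below 0 for 28 members and called above 0 for 0, at a background of 5.46%, with a median of -0.29. Rpl39 had a difference of -1.61 ± 0.342 (SE), Rps2 of -1.32 ± 0.291 (SE) and Rpl7a of -1.21 ± 0.277 (SE).

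Between lines the set was lowest in B16-F10. In B16-F10 Ctrl against YUMM2.1 EV 56 members were lower and 0 higher, where 25.6% of all genes were lower, with a median of -0.56. Rps12 had 1645 and 2880 CPM in YUMM2.1 and 492 and 604 CPM in B16-F10, which is -2.05 ± 0.283 on the log2 scale (SE, edgeR adjusted p = 7.6e-07), or -1.36 with copies added. Rpl36a had 888 and 863 CPM against 193 and 242 CPM, Rps20 1698 and 2041 CPM against 624 and 759 CPM, and Rpl41 2865 and 3830 CPM against 1104 and 1379 CPM. Rpl5 had a log2 fold change of -1.28, or -0.47 with copies added, and Rpl11 of -0.81, all called. Rplp1 and Rplp0 had -0.33 and -0.28 and were not called. With labels exchanged 55 members were lower, and with both doubted libraries left out 45. Markers of other cell types summed to 5.89 and 5.83 CPM of total counts in B16-F10 Ctrl and 12.2 and 10.8 CPM in YUMM2.1 EV, and their part was not tested.

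YUMM1.7 EV stood above YUMM2.1 EV for 30 members and below for 0, where 15.3% of all genes were higher, with a median of 0.33. Rpl17 had 328 and 325 CPM in YUMM2.1 and 603 and 602 CPM in YUMM1.7, which is 0.88 ± 0.16 on the log2 scale (SE, edgeR adjusted p = 7.17e-05). Rps9 had 1213 and 1250 CPM against 2172 and 2147 CPM, and Rps6, the phosphorylated target of S6 kinase, 1067 and 1009 CPM against 1702 and 1684 CPM. Rpl21 had a log2 fold change of 0.69. With labels exchanged 35 members were higher and with both doubted libraries left out 25. The clone aC3 EV against YUMM2.1 EV gave 0 calls at a background of 2.48%, with 1 at an unadjusted p under 0.05 and 0 by DESeq2, and a median of 0.12. Line, depth and library preparation cannot be told apart.

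The ribosomal proteins that the symbol rule leaves out were read beside the members. Fau, which encodes Rps30, had log2 fold changes of 0.66 in YUMM2.1 dHLH-Bmal1 against EV, 0.86 in WT-Bmal1 shNC against EV shNC and -1.16 in B16-F10 Ctrl against YUMM2.1 EV, all called. With both doubted libraries left out the value of Fau in YUMM2.1 dHLH-Bmal1 was 0.73 and not called. In dHLH-Bmal1 shNC against EV shNC 5 of these 8 were higher and 1 lower, with a median of 0.55, and in B16-F10 Ctrl against YUMM2.1 EV 1 was higher and 5 lower.

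Genes that build ribosomes were counted in the same comparisons. In aC3 WT-Bmal1 against EV 26 of 35 biogenesis genes were lower and 0 higher, where 6.28% of all genes were lower, with a median of -0.58, beside 0 of 77 members. Gnl3, which encodes nucleostemin, had 113 and 113 CPM with EV and 62.2 and 57.6 CPM with WT-Bmal1, and Rrs1 had a log2 fold change of -0.96. In aC3 dHLH-Bmal1 against EV 20 were lower, with a median of -0.46. Under the control hairpin 16 of the 35 were lower and 1 higher for WT-Bmal1, where 10.6% of all genes were lower (median -0.44), and 18 were lower and 0 higher for dHLH-Bmal1, where 12.5% of all genes were lower (median -0.42). Gnl3 fell from 129 and 152 CPM to 55.4 and 51.8 CPM with WT-Bmal1. In YUMM2.1 dHLH-Bmal1 against EV 2 biogenesis genes, Rrs1 and Nop2, were lower and the median was 0.0092. In B16-F10 Ctrl against YUMM2.1 EV 13 were higher and 3 lower, where 21.2% of all genes were higher, with a median of 0.30. With the 2 labels exchanged YUMM2.1 dHLH-Bmal1 against EV gave 5 higher and 3 lower biogenesis genes, and with both libraries left out 1 and 1, Nop2 losing its call.

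Other transcripts with a TOP tract, those of elongation and initiation factors and a few more, were counted likewise. In YUMM2.1 dHLH-Bmal1 against EV 2 of 18 were higher, Npm1 (0.64) and Eef1b2 (0.46), with a median of 0.18. With the 2 labels exchanged 5 were higher, and with both libraries left out 0 were. In WT-Bmal1 shNC against EV shNC 2 were higher and 1 lower, and in dHLH-Bmal1 shNC against EV shNC 3 and 2, with medians of 0.084 and 0.022, counts that lie near the shares of all genes given above for these comparisons. In dHLH-Bmal1 shMyh9#4 against shNC 4 were lower and 1 higher, with Eef1a1 at -0.83 and Tpt1 at -0.70 among the lower ones, with a median of -0.14. In B16-F10 Ctrl against YUMM2.1 EV 8 were lower and 1 higher, led by Tpt1 at -1.48 and Eef1g at -0.96.

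Mitochondrial ribosomal protein genes were read as another set. Of the 78 tested, 2 were higher in YUMM2.1 dHLH-Bmal1 against EV (median 0.16), 3 were higher and 7 lower in WT-Bmal1 shNC against EV shNC (median -0.065), and 3 were higher and 10 lower in dHLH-Bmal1 shNC against EV shNC (median -0.11). In B16-F10 Ctrl against YUMM2.1 EV 16 were higher and 15 lower, with a median of -0.0055. With the 2 labels exchanged 13 were higher and 1 lower in YUMM2.1 dHLH-Bmal1 against EV, and with both libraries left out 1 and 0. The comparison between the lists themselves was not tested. Among 12 growth and TOP regulators 1 was higher and 0 lower in YUMM2.1 dHLH-Bmal1 against EV, where 6.51% of all genes were higher. The median was -0.083, and with the 2 labels exchanged 1 was higher and 3 lower. The translation repressor gene Eif4ebp1 had 77.2 and 102.3 CPM with EV and 235 and 219 CPM with dHLH-Bmal1. Its log2 fold change was 1.34 ± 0.161 (SE, edgeR adjusted p = 0.0042). In aC3 WT-Bmal1 against EV 1 was higher and 3 lower, where 6.28% of all genes were lower, and Larp1 had -0.67. In dHLH-Bmal1 shNC against EV shNC 2 were higher and 4 lower, and Larp1 had -0.70. There 13.9% of all genes were higher and 12.5% lower.

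**Figure D5:**
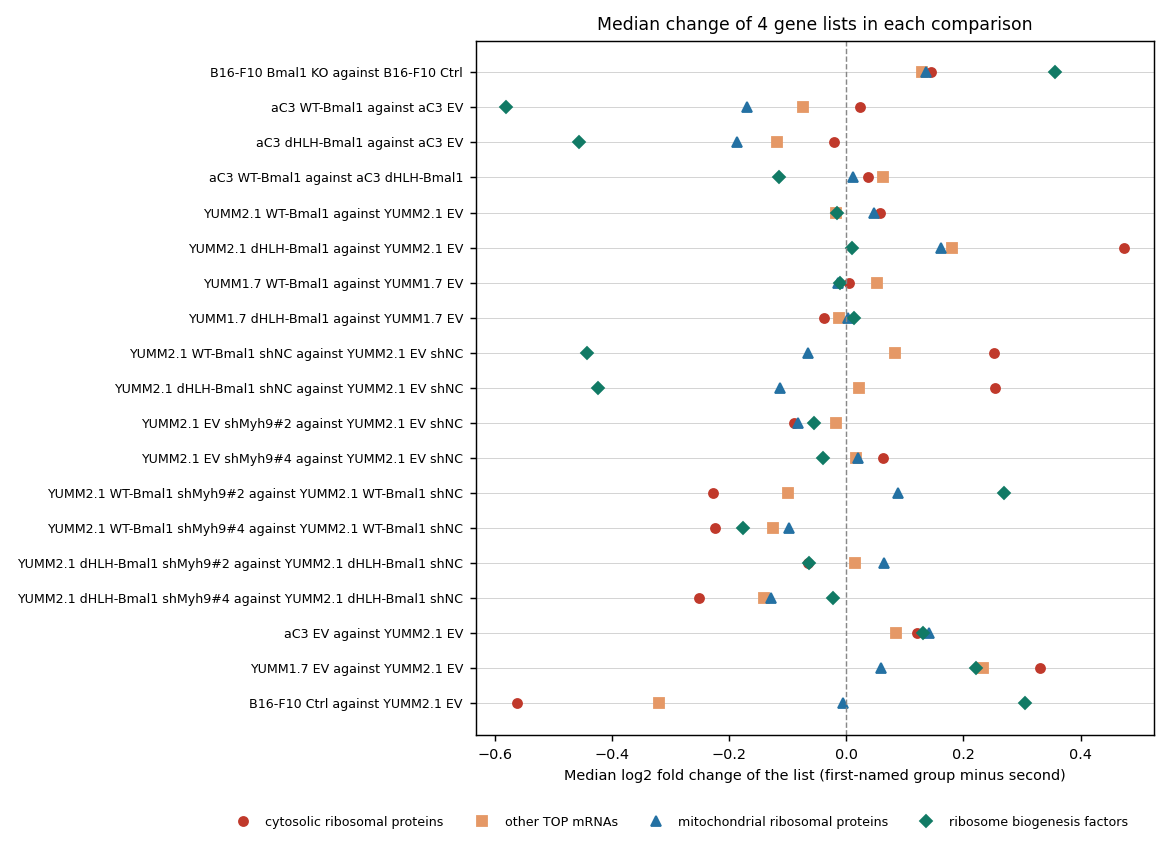
Median log2 fold change of the members and 3 other lists in each comparison, first-named group minus second. The members lie at 0.25 and the biogenesis factors at -0.44 and -0.42 in the comparisons of WT-Bmal1 and dHLH-Bmal1 with EV under the control hairpin, and in aC3 the biogenesis factors fall to -0.58 while the members stay near 0.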

How the data were processed

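Total RNA of the cultured cells was extracted with TRIzol and sequenced as QuantSeq FWD 3′ libraries. The authors aligned reads to mm10 with bowtie2 and estimated gene counts with RSEM (version 1.2.3 in the submitters' processing notes), and they deposited these estimated counts as whole numbers. The annotation release and the strand setting are not given in the sources used here. Symbols were taken from GENCODE M21, which matched 99.6% of IDs. Counts were fitted with edgeR 4.0.16 in R 4.3.3 (TMM scaling, filterByExpr, glmQLFit, glmQLFTest), 1 fit per experiment and 1 of all 40 libraries for lines and differences, with Benjamini-Hochberg adjustment over all genes tested and a threshold of 0.05. CPM are TMM-scaled within the fit. DESeq2 1.42.0 was an alternative, as were other scalings, no filter, the replicate block, copies added and libraries left out. The scripts were tested on simulated data. Members and lists were chosen with earlier results of these data known. Genes were named by rule: the 8 highest and 5 lowest members, the 6 with the widest range over groups among members of at least 10 CPM, in each comparison the 5 called members with the largest change per direction, the stalk, 5S and paralog genes, and at most 3 called genes of each other list. A few genes that this rule names are not reported here. The E-box members, Rps6 and Rps25 in the overlap of lists and the members named for differences between effects were chosen after their values were seen.

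Same-numbered libraries were checked for shared deviations. In YUMM2.1 the correlations of the 3 pairs were 0.181 to 0.393 (mean 0.318). They were 0.0248 to 0.0742 in aC3, -0.0571 to 0.0757 in YUMM1.7, 0.0904 in B16-F10 and -0.142 to 0.199 in the knockdown libraries (mean -0.0038). The highest knockdown value lay above the lowest of YUMM2.1. The main fits used no pairs in any experiment, and the replicate block was an alternative. The SE, p-values and calls of YUMM2.1 dHLH-Bmal1 against EV thus do not account for shared deviations.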

Additional observations from a re-analysis of the deposited data

Results flagged for a closer look

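A test of the difference itself found that 3 effects were not the same in the groups compared. The effect of shMyh9#4 was called lower in dHLH-Bmal1 cells than in EV cells for 28 members and called higher for 0. Leaving out single libraries gave 8 to 34 members, and adding near-identical copies gave 32.

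The effect of dHLH-Bmal1 was called higher in YUMM2.1 than in aC3 for 21 members and lower for 0, with 7 to 34 members when single libraries were left out. It was called higher in YUMM2.1 than in YUMM1.7 for 27 members and lower for 0, with 10 to 30 members when single libraries were left out. With both doubted YUMM2.1 libraries left out these counts were 24 and 28. The pairs of cells also differ in experiment, which cannot be told apart from the cell background.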

How the results depend on the processing

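Counts of members called and the named changes of members were recomputed under the alternatives that apply to them, the exchange or omission of 2 YUMM2.1 libraries only where YUMM2.1 EV was compared. Other lists were recomputed only under that exchange, that omission and the YUMM2.1 block. Counts of members called are given here where they moved by more than 1.5 times. Without a filter on low counts, 2 members were called in aC3 WT-Bmal1 against EV, 7 in aC3 dHLH-Bmal1 against EV, 4 in aC3 WT-Bmal1 against dHLH-Bmal1, 47 in YUMM2.1 dHLH-Bmal1 against EV, 6 and 18 in YUMM1.7 WT-Bmal1 and dHLH-Bmal1 against EV, 17 and 1 for shMyh9#2 and shMyh9#4 in EV cells, 19 and 8 in WT-Bmal1 cells and 1 in aC3 EV against YUMM2.1 EV. The differences of the dHLH-Bmal1 effect then gave 37 (YUMM2.1 minus aC3) and 46 (minus YUMM1.7). DESeq2's Wald test called 43 in YUMM2.1 dHLH-Bmal1 against EV, 2 and 10 in YUMM1.7 WT-Bmal1 and dHLH-Bmal1 against EV, and 17 and 10 for shMyh9#2 and shMyh9#4 in WT-Bmal1 cells. Library totals as scaling gave 14 in YUMM2.1 dHLH-Bmal1 against EV and 11 in its difference from aC3. Named pseudogenes added to the members gave 2 in YUMM1.7 dHLH-Bmal1 against EV. Near-identical copies added, an alternative chosen after the data were seen, gave 2 in aC3 dHLH-Bmal1 against EV and 0 in YUMM1.7 dHLH-Bmal1 against EV, where Rps12 turned from higher to -0.041. With 2 YUMM2.1 labels exchanged, 59 were called in dHLH-Bmal1 against EV, 1 in aC3 EV against YUMM2.1 EV and 37 in the difference from aC3, and with both libraries left out 7 were called in dHLH-Bmal1 against EV. The summed share had a median of 11.3% of protein-coding counts.

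The replicate block gave 65 called members in YUMM2.1 dHLH-Bmal1 against EV. In the other fits it gave 8 in aC3 dHLH-Bmal1 against EV and 2 in aC3 WT-Bmal1 against dHLH-Bmal1, and it moved no other count by more than 1.5 times.

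Leaving out single libraries gave 0 to 49 called members in B16-F10 Bmal1 KO against Ctrl, 0 to 3 in aC3 WT-Bmal1 against EV, 0 to 40 in aC3 dHLH-Bmal1 against EV (11, 10 of them higher, without dHLH-Bmal1 replicate 1), 0 to 25 in aC3 WT-Bmal1 against dHLH-Bmal1 and 1 to 19 in YUMM2.1 dHLH-Bmal1 against EV. It gave 0 to 10 in YUMM1.7 WT-Bmal1 against EV and 0 to 15 in dHLH-Bmal1 against EV, with 1 member, a higher one, without EV replicate 1 and 1 without dHLH-Bmal1 replicate 2. Under the control hairpin the ranges were 10 to 30 for WT-Bmal1 and 13 to 26 for dHLH-Bmal1. For the hairpins they were 0 to 3 (shMyh9#2 with EV), 0 to 3 (shMyh9#2 with WT-Bmal1), 0 to 0 (shMyh9#4 with WT-Bmal1) and 8 to 38 (shMyh9#4 with dHLH-Bmal1). Between lines they were 18 to 27 for YUMM1.7 and 43 to 56 for B16-F10 against YUMM2.1. For the differences they were 8 to 34 (shMyh9#4 effect in dHLH-Bmal1 minus EV), 6 to 34 (shMyh9#4 against shMyh9#2), 7 to 34 (minus aC3) and 10 to 30 (minus YUMM1.7). The median summed share ran from 10.3% to 10.4%. A group left with 1 library is assumed to vary like the others in its fit.

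Over 50 single-gene results, 535 alternatives kept direction and call, 120 kept direction and lost the call, and 1 reversed. With 2 libraries per group a small shift of the whole set cannot be separated from the shift between replicates, and 18 members share reads with copies.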
